A study of Mus musculus with 13 samples.

Results

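The 41 genes described here make up the machinery that copies DNA. They were followed across normal and tumor-derived mouse mammary organoids grown in either of 2 gels. They were chosen by name, as the probes whose gene name on the array was one of 41 replication genes or an older synonym of it (Cdc45l, Orc1l, Recc1 for Rfc1, and 4833427B12Rik for Gins2). All 41 were found, on 61 probes, and all 41 passed the filter on dim probes, so that they are 41 of the 17635 genes tested. Organoids are epithelial fragments, each of many cells, here freed from mammary tissue by collagenase and trypsin and kept for 4 days in medium with 2.5 nM FGF2, a growth factor. The 4 groups, each of 3 arrays from 3 mice, were tumor organoids in collagen I, tumor organoids in Matrigel, normal organoids in collagen I and normal organoids in Matrigel. Tumor organoids came from the largest mammary tumor of MMTV-PyMT mice of 12 to 16 weeks, in which a viral promoter active in mammary epithelium drives the polyoma middle T oncogene, and normal organoids came from the glands of FVB mice. The collagen I was from rat tail at 3 mg/ml, and Matrigel is a laminin-rich basement membrane gel. The same mouse letter in both gels of a tissue is 1 animal: tumor mice A, B and C gave both gels, whereas the normal mice were A, B and C in collagen I and A, B and D in Matrigel.

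A cell prepares its origins of replication in G1, when ORC, Cdc6 and Cdt1 load the ring of MCM proteins onto DNA. At the start of S phase the kinase Cdc7, with Cdc45 and the GINS complex, turns the loaded rings into moving helicases. Polymerase alpha with primase lays down starts, polymerases delta and epsilon extend them on the sliding clamp PCNA, and E2F factors switch on many of the genes together. In mammary tissue the level of these transcripts is widely used as a sign of the share of cells that are cycling. In pieces of tissue such as these, fewer cycling cells and less RNA per cell cannot be told apart.

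In Matrigel, tumor organoids had lower levels than normal organoids for 14 of the 41 genes (25.4% of all genes were lower) and higher levels for 3 (26.2% of all genes). The lower ones included Pola1, the catalytic subunit of polymerase alpha, Ccne2, Cdc7, Gins3 and Mcm4, and the higher ones were Cdt1, Tk1 and Pold1. Of the lower ones named, Pola1, Cdc7 and Mcm4 held under every other way of processing tried, and Ccne2 and Gins3 did not. None of the 3 higher calls held under all of them. In tumor organoids Pola1, Ccne2 and Gins3 were higher (15.2% of all genes were) and Pold1, Cdt1, Tk1 and Pole2 lower (12.3% of all genes) in collagen I than in Matrigel. Of these gel calls only that of Pold1 held under every other way of processing tried. Ccne2 was not well above background on any tumor Matrigel array. In normal organoids none of the 41 genes passed the test between the gels (0.034% of all genes were higher and 0.00567% lower). All 41 fitted changes were nevertheless negative in collagen I. Between tumor and normal organoids in collagen I none of the 41 passed (3.79% of all genes were higher and 5.11% lower).

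All values below are levels, the log2 of the processed signal minus the log2 of that array's 75th percentile, and changes are differences of mean levels with limma's standard error given after ±. A gene is called higher or lower where its adjusted p, Benjamini-Hochberg over all 17635 genes, was below 0.05. Brightness varied, with a 75th percentile of the signal of 691 to 812 on the tumor collagen I arrays, 383 to 570 on the tumor Matrigel arrays, 971 to 1216 on the normal collagen I arrays and 671 to 1098 on the normal Matrigel arrays. Luminal and basal epithelial markers (9 and 7 genes) were well above background on all 12 arrays, and 5 of the 9 luminal markers were called higher in tumor than in normal organoids in Matrigel. Of the 7 basal markers, 1 was called higher and 3 lower between the tissues in Matrigel, and likewise 1 higher and 3 lower in collagen I. Of the markers of other cell types, all 7 of the fibroblast list and 4 of the 5 of the endothelial list were called lower in tumor than in normal organoids in Matrigel, as were both adipocyte markers that were tested. The unlogged levels of each list were summed on each array and the log2 of the sum taken, so that bright genes weigh most. For the fibroblast list this was 2.49 to 3.34 in tumor collagen I, 1.93 to 2.43 in tumor Matrigel, 4.84 to 6.10 in normal collagen I and 4.13 to 6.92 in normal Matrigel. For the endothelial list it was -3.43 to -2.60, -2.09 to -0.97, 1.66 to 2.60 and 2.59 to 2.97. Ptprc, the pan-leukocyte marker, was not well above background on any tumor array. The part of these cells in the levels below was not tested.

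Each level is the signal of 1 probe of 60 bases, and where a gene had several probes the brightest was used. The probes of 6 called genes, 3 lower and 3 higher in tumor than in normal organoids in Matrigel, are shown because the main comparisons rest on them, in lower case with no base marked, with positions in mouse build mm7 as the array files give them; the Pold1 probe spans more than 60 bases of genome. Their GC content was 35% for Pola1, 45% for Ccne2, 41.7% for Cdc7, 36.7% for Cdt1, 50% for Tk1 and 55% for Pold1.
Pola1, chrX:88691502-88691561, minus strand: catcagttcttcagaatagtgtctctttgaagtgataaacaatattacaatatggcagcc
Ccne2, chr4:11130171-11130230, plus strand: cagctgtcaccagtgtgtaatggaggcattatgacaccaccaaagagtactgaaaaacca
Cdc7, chr5:106161091-106161150, plus strand: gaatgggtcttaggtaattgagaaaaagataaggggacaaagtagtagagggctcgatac
Cdt1, chr8:121214998-121215057, plus strand: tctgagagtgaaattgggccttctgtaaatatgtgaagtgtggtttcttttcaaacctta
Tk1, chr11:117924836-117924895, minus strand: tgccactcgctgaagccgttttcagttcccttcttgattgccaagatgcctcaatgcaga
Pold1, chr7:40707373-40707741, minus strand: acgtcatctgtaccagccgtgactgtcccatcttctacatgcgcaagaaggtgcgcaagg

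Replication promoters are known for E2F sites. In the RefSeq promoters (GRCm38.p6, 250 bases before to 50 after the start), 33 of the 41 genes matched by symbol, and 10 of those 33 (30.3%) held TTTCGCGC or TTTGGCGC on either strand (GCGCGAAA and GCGCCAAA on the other). The share was 188 of 11439 (1.64%) among the tested genes with a promoter. The 10 genes were Cdt1, Lig1, Mcm3, Mcm5, Mcm6, Mcm7, Orc1, Pola1, Pole2 and Rfc3. Of these 10, 2 were called lower and 1 higher in tumor against normal organoids in Matrigel, with a median change of -0.32. Of the other 31 genes, which include the 8 with no promoter matched, 12 were lower and 2 higher, with a median of -0.60. Over all genes tested, 25.4% were lower and 26.2% higher. A difference between genes with and without the motif was not tested. Pola1, Cdt1 and Mcm6 are shown because the first was called lower and the next higher in that comparison while the third passed in neither direction; capitals mark the motifs, and in Mcm6 a pair of them shares 4 bases.
Pola1, chrX:93632106-93632405, minus strand: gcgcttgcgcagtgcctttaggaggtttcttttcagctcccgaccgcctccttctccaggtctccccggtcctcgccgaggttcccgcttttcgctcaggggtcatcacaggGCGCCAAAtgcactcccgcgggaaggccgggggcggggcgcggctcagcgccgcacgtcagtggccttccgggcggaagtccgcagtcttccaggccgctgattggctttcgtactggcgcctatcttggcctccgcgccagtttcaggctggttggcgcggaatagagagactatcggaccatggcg
Cdt1, chr8:122567765-122568064, plus strand: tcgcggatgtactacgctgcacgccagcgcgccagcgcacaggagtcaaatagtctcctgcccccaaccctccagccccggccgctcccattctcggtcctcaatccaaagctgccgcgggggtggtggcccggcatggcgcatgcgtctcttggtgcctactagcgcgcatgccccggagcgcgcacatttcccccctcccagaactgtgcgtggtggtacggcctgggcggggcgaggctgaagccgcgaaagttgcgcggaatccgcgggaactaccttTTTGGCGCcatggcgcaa
Mcm6, chr1:128359656-128359955, minus strand: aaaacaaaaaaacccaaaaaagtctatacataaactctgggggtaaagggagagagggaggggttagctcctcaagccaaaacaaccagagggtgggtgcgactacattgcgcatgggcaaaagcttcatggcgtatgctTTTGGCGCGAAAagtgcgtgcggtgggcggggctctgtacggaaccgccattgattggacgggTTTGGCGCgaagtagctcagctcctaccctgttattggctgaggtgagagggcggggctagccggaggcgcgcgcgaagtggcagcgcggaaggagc

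**Figure D1:**
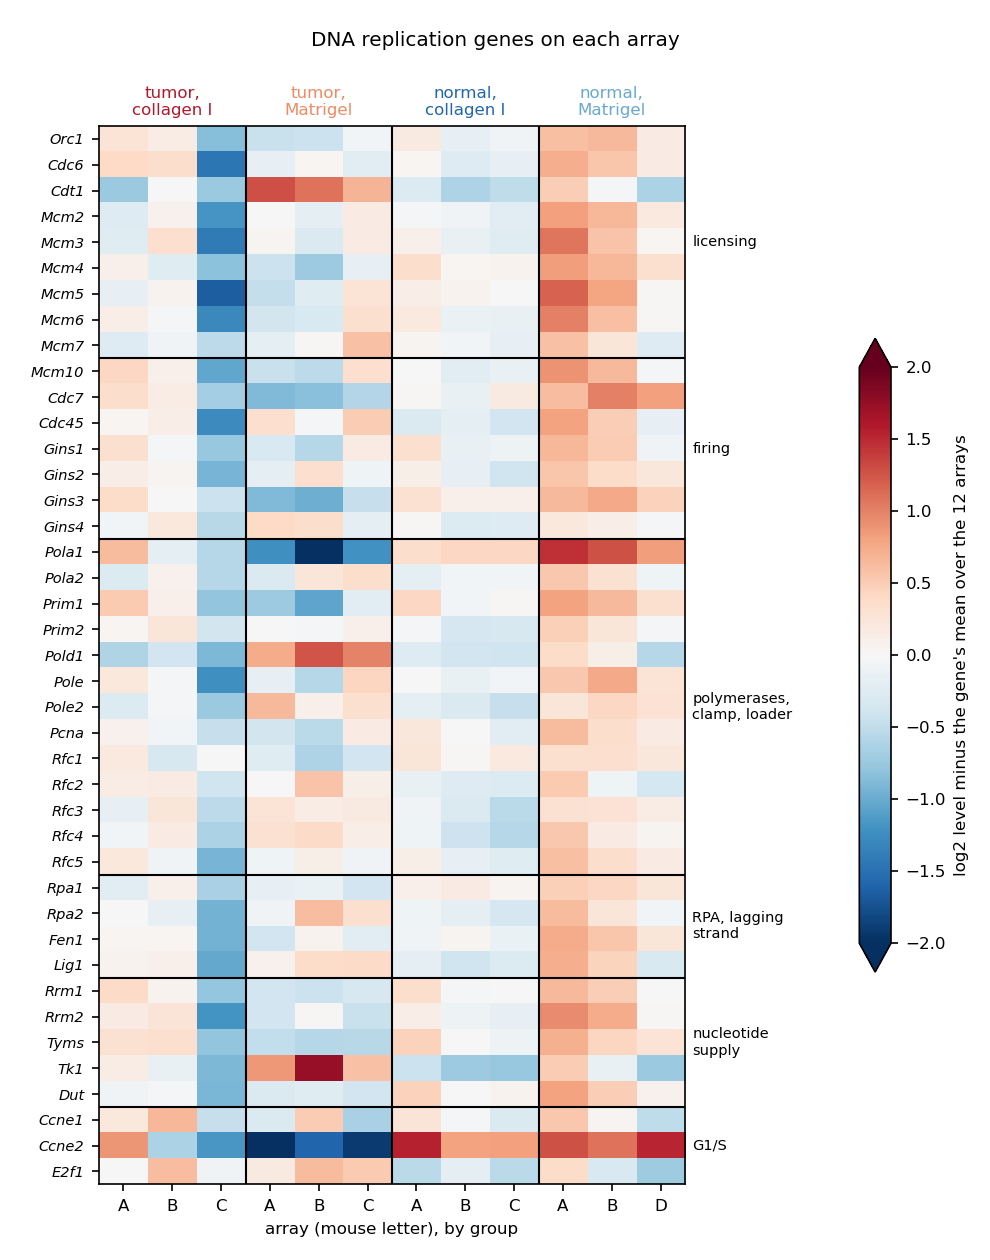
Level of each of the 41 genes (vertical, by role) on each of the 12 arrays (horizontal, by group and mouse letter), as log2 difference from the gene's mean over the 12 arrays; colours stop at 2 in either direction. The tumor collagen I array of mouse C is the lowest of the 12 for 30 genes and the normal Matrigel array of mouse A the highest for 27, while Cdt1, Pold1 and Tk1 are highest in tumor Matrigel.

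Set against the whole array, the counts read as follows. In tumor against normal organoids in Matrigel, 3 genes were called higher (26.2% of all genes were) and 14 lower (25.4% of all genes). The median change was -0.60, against 0.10 over all genes, and 32 of the 41 changes were negative. On 17 genes every tumor Matrigel array lay below every normal Matrigel array (27.7% of all genes did), and on 3 every one lay above (30.0% of all genes). In tumor organoids between the gels, 3 genes were called higher in collagen I (15.2% of all genes) and 4 lower (12.3% of all genes), with a median change of -0.25 against -0.06 over all genes. That median was -0.04 under quantile normalization (19 changes positive, 22 negative) and -0.05 with the authors' deposited values (also 19 and 22). With the mouse as a fixed block the tumor gel comparison called 1 higher and 3 lower. Here and below, shares of all genes called are those of the main fit, and none is given for the alternatives. In normal organoids between the gels the counts were 0 higher (0.034% of all genes) and 0 lower (0.00567% of all genes), and in tumor against normal organoids in collagen I they were 0 higher (3.79%) and 0 lower (5.11%). For the difference of the gel effects, tumor minus normal, 1 gene was called higher (1.39% of all genes) and 0 lower (1.39%). The comparisons share groups: the tumor Matrigel arrays stand in both the tumor gel comparison and the comparison of tissues in Matrigel, with opposite signs. Leaving out 1 array moved the 17 calls between the tissues in Matrigel to 10 without normal Matrigel B and to 11 without tumor Matrigel B, and the 7 calls between the gels in tumor organoids to 4 without tumor collagen I A and to 4 without tumor Matrigel A.

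**Figure D2:**
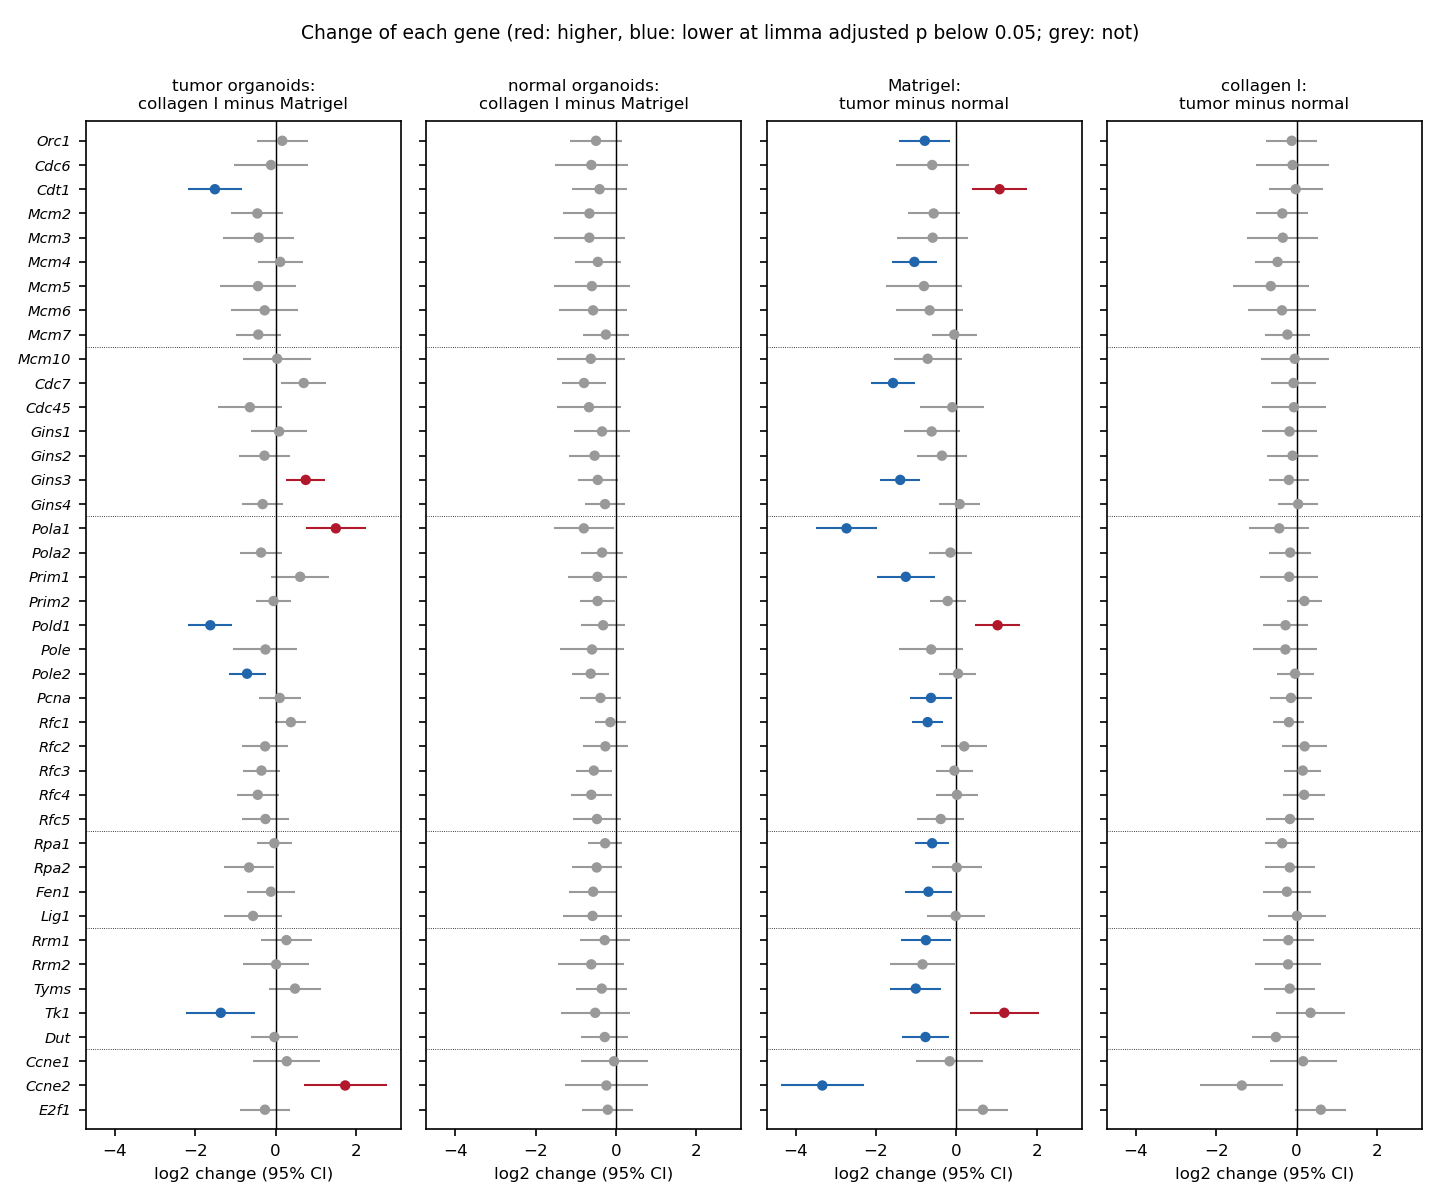
Log2 change of each gene with its 95% confidence interval from the limma fit in the 4 comparisons (3 arrays against 3 each), by role. In Matrigel, tumor minus normal, 14 genes lie below and 3 above 0 at an adjusted p below 0.05; in normal organoids all 41 changes lie below 0 and none passes.

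The licensing genes (Orc1, Cdc6, Cdt1 and Mcm2 to Mcm7) were lower in tumor than in normal organoids in Matrigel for Mcm4 and Orc1. Cdt1 was higher, and the other 6 did not pass (25.4% of all genes were lower and 26.2% higher). Mcm4, a subunit of the MCM ring, stood at 3.47, 3.14 and 2.55 on the tumor collagen I arrays (here and below in the order of mice A, B and C, or A, B and D for normal Matrigel) and at 2.95, 2.64 and 3.22 on the tumor Matrigel arrays. In normal organoids it stood at 3.73, 3.41 and 3.45 in collagen I and at 4.20, 4.04 and 3.70 in Matrigel. Every tumor Matrigel array lay below every normal array, and the change in Matrigel was -1.04 ± 0.26 (limma adjusted p = 0.00650), a call that held under all 26 alternatives. Cdt1, the loading factor that is destroyed when S phase starts, went the other way. Its levels were 2.78, 3.51 and 2.78 in tumor collagen I and 4.80, 4.59 and 4.19 in tumor Matrigel, against 3.24, 2.89 and 3.00 in normal collagen I and 4.01, 3.47 and 2.88 in normal Matrigel. The 3 tumor Matrigel arrays were the highest of the 12, without overlap. Cdt1 was higher in tumor than in normal organoids in Matrigel by 1.08 ± 0.31 (limma adjusted p = 0.0134) and lower in tumor collagen I than in tumor Matrigel by a change of -1.51 ± 0.31 (limma adjusted p = 0.00693). The tissue call was lost without normal Matrigel D (0.79, limma adjusted p = 0.0571), under quantile normalization (0.56), under normexp (0.75) and with the authors' deposited values (0.56). Mcm6, another subunit of the ring, stood at 5.02, 4.86 and 3.59 in tumor collagen I and 4.51, 4.57 and 5.19 in tumor Matrigel. In normal organoids its levels were 5.08, 4.74 and 4.74 in collagen I and 5.88, 5.48 and 4.90 in Matrigel. Tumor collagen I C was the lowest and normal Matrigel A the highest of the 12, the tissues overlapped in both gels, and the change in Matrigel was -0.66 (limma adjusted p = 0.167). Orc1, the ATPase subunit of the origin recognition complex, was lower in tumor Matrigel by a change of -0.78 ± 0.29 (limma adjusted p = 0.0418), a call lost in 15 of 26 alternatives (0.22 under normexp), 7 of which each left out 1 array (tumor Matrigel A or B, normal Matrigel A or B, or any normal collagen I array; -0.78 to -0.69). In Matrigel, tumor against normal, the remaining changes were -0.80 for Mcm5, -0.60 for Cdc6, -0.59 for Mcm3, -0.56 for Mcm2 and -0.05 for Mcm7. Between the gels in tumor organoids the 8 licensing genes other than Cdt1 had changes of -0.45 to 0.17, and in normal organoids all 9 had changes of -0.66 to -0.25.

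Among the genes of origin firing, Cdc7 and Gins3 were lower in tumor than in normal organoids in Matrigel (25.4% of all genes were). Cdc7, the kinase that phosphorylates the MCM ring, stood at -0.90, -1.11 and -1.93 in tumor collagen I and at -2.13, -2.08 and -1.83 in tumor Matrigel. In normal organoids its levels were -1.23, -1.40 and -1.08 in collagen I and -0.64, -0.25 and -0.44 in Matrigel. The highest 3 of the 12 arrays were those of normal Matrigel, and tumor Matrigel lay below both normal groups without overlap. The change in Matrigel, tumor minus normal, was -1.57 ± 0.25 (limma adjusted p = 0.000711), and it passed under all 26 alternatives. Both other probes of Cdc7 were also lower, by -1.37 and -1.45. Gins3, a subunit of the GINS complex, had levels of -1.25, -1.62 and -2.05 in tumor collagen I and -2.50, -2.60 and -2.07 in tumor Matrigel. In normal organoids these were -1.30, -1.52 and -1.52 in collagen I and -0.97, -0.87 and -1.15 in Matrigel. Tumor Matrigel was the lowest group and normal Matrigel the highest, each without overlap with any other group. Its change between the tissues in Matrigel was -1.39 ± 0.22 (limma adjusted p = 0.000708), lost in 1 of 26 alternatives (normexp, -0.58). In tumor organoids it was higher in collagen I than in Matrigel by 0.75 ± 0.22 (limma adjusted p = 0.0305). That gel call was lost in 11 of 27 alternatives, among them leaving out tumor collagen I A or B or tumor Matrigel A or B (0.56 to 0.74), and with the mouse as a fixed block (limma adjusted p = 0.100). Over the 7 lost settings that kept all arrays, the change ran from 0.05 to 0.76 (limma adjusted p = 0.0609 to 0.908). Cdc7 itself was at 0.70 ± 0.25 between the gels in tumor organoids (limma adjusted p = 0.0606). Its other probes gave 0.83 (limma adjusted p over probes = 0.0341) and 0.49 (limma adjusted p over probes = 0.242) there. Cdc7 passed with the mean of its probes (0.67, limma adjusted p = 0.0287), and with mouse (0.70) or slide (0.72) as a random block. Gins4, another subunit of GINS, stood at 1.80, 2.07 and 1.31 in tumor collagen I and 2.26, 2.21 and 1.67 in tumor Matrigel, against 1.89, 1.58 and 1.60 in normal collagen I and 2.06, 1.98 and 1.83 in normal Matrigel. Its groups overlapped throughout, and no change passed (0.09 in Matrigel, tumor minus normal). Gins1, Gins2, Mcm10 and Cdc45 had changes of -0.61, -0.36, -0.71 and -0.10 in that comparison, none of which passed.

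Of the 13 polymerase, primase, clamp and clamp loader genes, 4 were lower and 1 higher in tumor than in normal organoids in Matrigel. Over all genes these shares were 25.4% and 26.2%. Pola1, which starts every new strand with primase, stood at 0.35, -0.48 and -0.85 in tumor collagen I and at -1.51, -2.48 and -1.50 in tumor Matrigel. In normal organoids it stood at 0.06, 0.13 and 0.13 in collagen I and at 1.18, 0.98 and 0.55 in Matrigel. The 4 groups separated except that tumor collagen I A lay above the normal collagen I arrays, with tumor Matrigel lowest and normal Matrigel highest. Tumor minus normal in Matrigel was -2.73 ± 0.34 (limma adjusted p = 0.000202), which passed under all 26 alternatives. In tumor organoids Pola1 was higher in collagen I than in Matrigel by 1.50 ± 0.34 (limma adjusted p = 0.0105), lost in 2 of 27 alternatives. In normal organoids the same change was -0.80 ± 0.34 (limma adjusted p = 0.524). The difference of these gel effects was 2.30 ± 0.48 (limma adjusted p = 0.0394), the 1 member called in that test in the main fit. It was lost in 13 of 26 alternatives: with the mouse as a fixed block (limma adjusted p = 0.131), under quantile normalization, normexp, the authors' deposited values, no filter on dim probes and the removal of the probe GC trend (1.55 to 2.49 over these 6), and without tumor collagen I A, tumor Matrigel B, normal Matrigel B or D or any normal collagen I array (1.96 to 2.48, limma adjusted p = 0.0652 to 0.108).

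Prim1 is the catalytic subunit of primase. Its levels were 2.86, 2.43 and 1.55 in tumor collagen I and 1.61, 1.28 and 2.11 in tumor Matrigel, against 2.75, 2.28 and 2.36 in normal collagen I and 3.14, 2.98 and 2.65 in normal Matrigel. Tumor Matrigel lay below both normal groups without overlap, and the change in Matrigel was -1.26 ± 0.33 (limma adjusted p = 0.00907), held under all 26 alternatives. Pold1, the catalytic subunit of polymerase delta, ran opposite. It stood at 2.10, 2.32 and 1.80 in tumor collagen I and at 3.43, 3.96 and 3.69 in tumor Matrigel, against 2.44, 2.31 and 2.30 in normal collagen I and 3.06, 2.81 and 2.13 in normal Matrigel. The 3 tumor Matrigel arrays were the highest of the 12. Pold1 was lower in tumor collagen I than in tumor Matrigel by a change of -1.62 ± 0.25 (limma adjusted p = 0.00248), and this call held under all 27 alternatives. Tumor exceeded normal organoids in Matrigel by 1.03 ± 0.25 (limma adjusted p = 0.00617). That call was lost once the probe GC trend was removed, where the change was 0.37 (limma adjusted p = 0.110). The other probe of Pold1 gave -1.76 for the gels in tumor organoids and 1.26 for the tissues in Matrigel.

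Pcna, the sliding clamp, stood at 4.41, 4.28 and 3.87 in tumor collagen I and 3.96, 3.79 and 4.50 in tumor Matrigel, against 4.56, 4.31 and 4.11 in normal collagen I and 4.96, 4.69 and 4.49 in normal Matrigel. Tumor Matrigel C overlapped the normal Matrigel arrays, and the change in Matrigel was -0.63 ± 0.24 (limma adjusted p = 0.0444). Rfc1, the large subunit of the clamp loader, had levels of 2.07, 1.55 and 1.88 in tumor collagen I and 1.63, 1.25 and 1.48 in tumor Matrigel, against 2.12, 1.90 and 2.07 in normal collagen I and 2.20, 2.20 and 2.10 in normal Matrigel. Its tumor Matrigel arrays lay below both normal groups, with a change of -0.71 ± 0.18 in Matrigel (limma adjusted p = 0.00659) that held under all 26 alternatives. The call of Pcna was lost in 13 of 26, 9 of which each left out 1 array (all but tumor collagen I A and C and tumor Matrigel C; -0.74 to -0.48). The small loader subunits Rfc2 to Rfc5 had changes of 0.20, -0.05, 0.02 and -0.39 in Matrigel and did not pass in any comparison. Pole2, an accessory subunit of polymerase epsilon, was lower in collagen I than in Matrigel in tumor organoids (-0.71 ± 0.21, limma adjusted p = 0.0294), and was lost in 9 of 27 alternatives, including leaving out tumor collagen I A or C or tumor Matrigel A or C (-0.75 to -0.52), and the mouse as a fixed block (limma adjusted p = 0.0801). Its change in Matrigel between the tissues was 0.04, and Pole, the catalytic subunit, had -0.62 there (limma adjusted p = 0.169). Pola2 and Prim2, partners of Pola1 and Prim1 in the same complex, had -0.14 and -0.21.

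**Figure D3:**
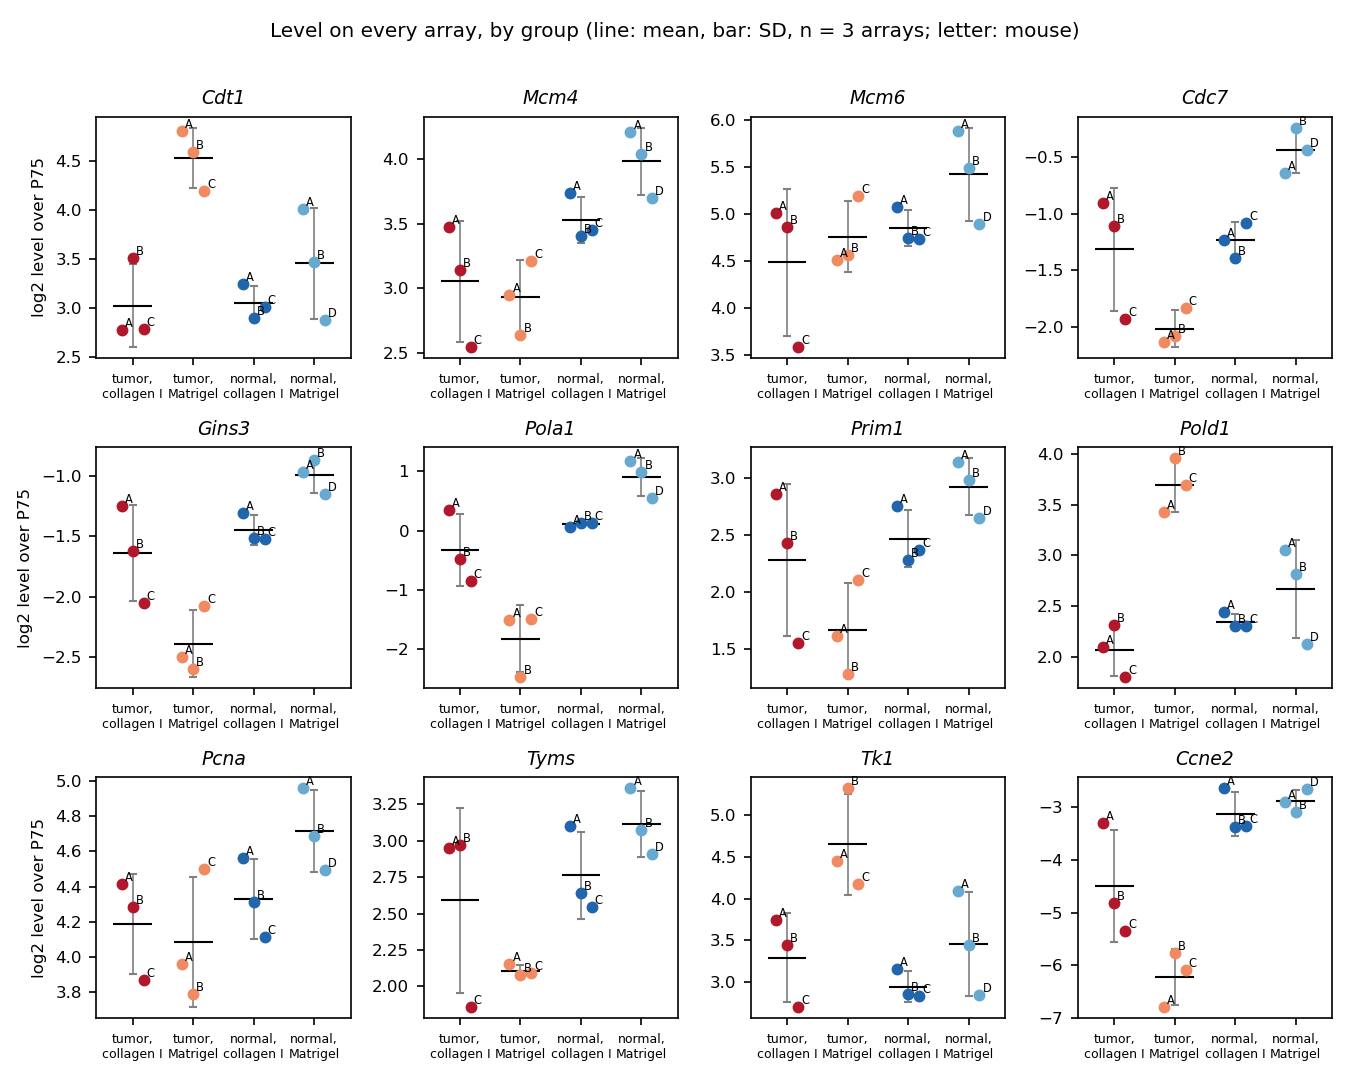
Level over the array's 75th percentile (log2, vertical) of 12 genes on each array, by group; points are arrays with their mouse letter, lines the mean and bars the SD (n = 3). Pola1, Cdc7, Gins3 and Prim1 are lowest in tumor Matrigel, where Cdt1, Pold1 and Tk1 are highest, and Tk1 of tumor Matrigel reaches 5.33.

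For single-strand binding and the lagging strand, Rpa1 and Fen1 were lower in tumor than in normal organoids in Matrigel. Rpa2 and Lig1 did not pass (25.4% of all genes were lower). Rpa1, the large subunit of the single-strand binding protein RPA, stood at 1.87, 2.21 and 1.46 in tumor collagen I and 1.93, 1.97 and 1.72 in tumor Matrigel, against 2.20, 2.27 and 2.15 in normal collagen I and 2.58, 2.51 and 2.34 in normal Matrigel. Every tumor Matrigel array lay below every normal array, and the change in Matrigel was -0.60 ± 0.20 (limma adjusted p = 0.0249). The call was lost with the batch 1 repeats averaged in (-0.39), with slide as a fixed block (-0.59), and without tumor Matrigel C or normal Matrigel A or B (-0.58 to -0.52). Fen1, the nuclease that trims Okazaki fragments, had -0.69 ± 0.27 (limma adjusted p = 0.0496), which did not pass in 13 of 26 alternatives. Of these, 9 each left out 1 array (any array other than those of tumor collagen I, -0.83 to -0.58). In the other 4 the change was -0.69 to -0.36 (limma adjusted p = 0.0517 to 0.298). Lig1, the ligase that seals them, stood at 3.83, 3.86 and 2.73 in tumor collagen I and 3.85, 4.12 and 4.13 in tumor Matrigel, against 3.56, 3.37 and 3.48 in normal collagen I and 4.49, 4.20 and 3.46 in normal Matrigel. Its tissues overlapped in both gels, and the changes between them were -0.02 in Matrigel and 0.01 in collagen I, with 95% intervals of -0.75 to 0.70 and -0.72 to 0.73.

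Among the 5 genes of nucleotide supply, Tyms, Dut and Rrm1 were lower and Tk1 higher in tumor than in normal organoids in Matrigel. Of all genes, 25.4% were lower and 26.2% higher there. Tyms makes thymidylate from deoxyuridylate. It stood at 2.95, 2.97 and 1.86 in tumor collagen I and at 2.15, 2.08 and 2.09 in tumor Matrigel, against 3.10, 2.64 and 2.54 in normal collagen I and 3.36, 3.07 and 2.91 in normal Matrigel. The tumor Matrigel arrays were alike and below every normal array, with a change of -1.01 ± 0.29 (limma adjusted p = 0.0141), lost only with slide as a fixed block (-1.19, limma adjusted p = 0.0514) of 26 alternatives. Tk1 makes thymidylate by the salvage route, from thymidine. Its levels were 3.74, 3.44 and 2.69 in tumor collagen I and 4.45, 5.33 and 4.17 in tumor Matrigel, against 3.15, 2.85 and 2.82 in normal collagen I and 4.09, 3.44 and 2.84 in normal Matrigel. The 3 tumor Matrigel arrays were the highest of the 12. Tk1 was higher in tumor than in normal organoids in Matrigel by 1.20 ± 0.39 (limma adjusted p = 0.0245) and lower in tumor collagen I than in tumor Matrigel by a change of -1.36 ± 0.39 (limma adjusted p = 0.0258). These calls were lost in 9 of 26 and 7 of 27 alternatives, among them quantile normalization (0.66 and -0.99) and the authors' deposited values (0.57 and -0.94). The tissue call was lost without tumor Matrigel B or normal Matrigel B or D (0.86 to 1.19), and the gel call without tumor collagen I C or tumor Matrigel B (-1.06 to -1.02). Dut, which removes dUTP, had -0.77 ± 0.27 in Matrigel (limma adjusted p = 0.0324) and was lost without any 1 of the tumor Matrigel arrays or normal Matrigel A or B (-0.80 to -0.60). Rrm1, the large subunit of ribonucleotide reductase, had -0.76 ± 0.28 (limma adjusted p = 0.0447), lost in 9 of the 12 settings that left out an array (-0.78 to -0.63), whereas its partner Rrm2 had -0.84 (limma adjusted p = 0.0786).

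Of the 3 G1/S regulators, Ccne2 was lower in tumor than in normal organoids in Matrigel (25.4% of all genes were). It is 1 of the pair of E cyclins that activate Cdk2 at S phase entry. Its levels were -3.30, -4.82 and -5.35 in tumor collagen I and -6.80, -5.77 and -6.09 in tumor Matrigel, against -2.64, -3.37 and -3.36 in normal collagen I and -2.91, -3.10 and -2.65 in normal Matrigel. The tumor arrays of both gels lay below all normal arrays except tumor collagen I A, which lay above normal collagen I B and C. Neither Ccne2 probe was well above background on any tumor Matrigel array, so only a bound holds there: normal Matrigel was at least 5.16-fold brighter, where each tumor Matrigel array was set to the dimmest probe well above background on it, or to the Ccne2 signal if that was higher. The limma adjusted p of 0.000371 belongs to the fit of the measured signals, and the bound itself was not tested. On the same footing tumor collagen I was at least 1.70-fold brighter than tumor Matrigel, and that bound was 1.12-fold without tumor collagen I A. Here too the limma adjusted p of 0.0209 is that of the measured signals and not of the bound. The gel call was lost in 7 of 26 alternatives: without tumor collagen I A or tumor Matrigel A, with the mouse as a fixed block (limma adjusted p = 0.0702), under quantile normalization, normexp and the authors' deposited values, and with only the groups compared. With normexp background correction the fitted changes of Ccne2 turned to 0.30 between the tissues in Matrigel and to -0.68 between the gels in tumor organoids, and neither passed. Ccne1, the other E cyclin, stood at 2.03, 2.47 and 1.36 in tumor collagen I and 1.53, 2.33 and 1.16 in tumor Matrigel, against 2.07, 1.78 and 1.53 in normal collagen I and 2.35, 1.87 and 1.30 in normal Matrigel. All its groups overlapped, and its 2 probes gave -0.17 and 0.25 between the tissues in Matrigel. E2f1, a transcription factor that drives S phase genes, had a change of 0.66 ± 0.29 between the tissues in Matrigel, which did not pass (limma adjusted p = 0.0738), and in collagen I every tumor array lay above every normal array (0.60, limma adjusted p = 0.235).

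The spread of the 41 genes between mice was widest in tumor collagen I. The SD within a group, at its median over the 41 genes, was 0.56 in tumor collagen I, 0.27 in tumor Matrigel, 0.17 in normal collagen I and 0.32 in normal Matrigel, against 0.34, 0.33, 0.18 and 0.26 over all genes. In tumor collagen I, mouse C was the lowest of the 3 for 39 of the 41 genes, with a median of -0.90 against the mean of the others (-0.12 over all genes). Mouse C minus the mean of A and B was -1.83 for Cdc6, the factor that recruits Cdt1 and the MCM ring, -1.60 for Mcm5, -1.46 for Mcm3 and 0.07 for Rfc1. The 6 mitosis markers (Mki67, Ccnb1, Aurkb, Plk1, Bub1 and Cdc20) were also lowest there: their centred median was 0.24 and 0.10 in tumor collagen I A and B and -1.30 in C. Their part in the replication genes was not tested. With the same mouse in both gels, the median of collagen I minus Matrigel over the 41 genes was 0.31 in tumor mouse A (27 genes positive), 0.24 in B (26 positive) and -0.76 in C (5 positive). Without tumor collagen I C, the median tumor gel change was 0.16 in place of -0.25. There 6 genes were called higher and 2 lower, with Cdc7 (1.01), Prim1 (0.98) and Tyms (0.85) among the higher. The share of all genes called in that setting is not given here.

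**Figure D4:**
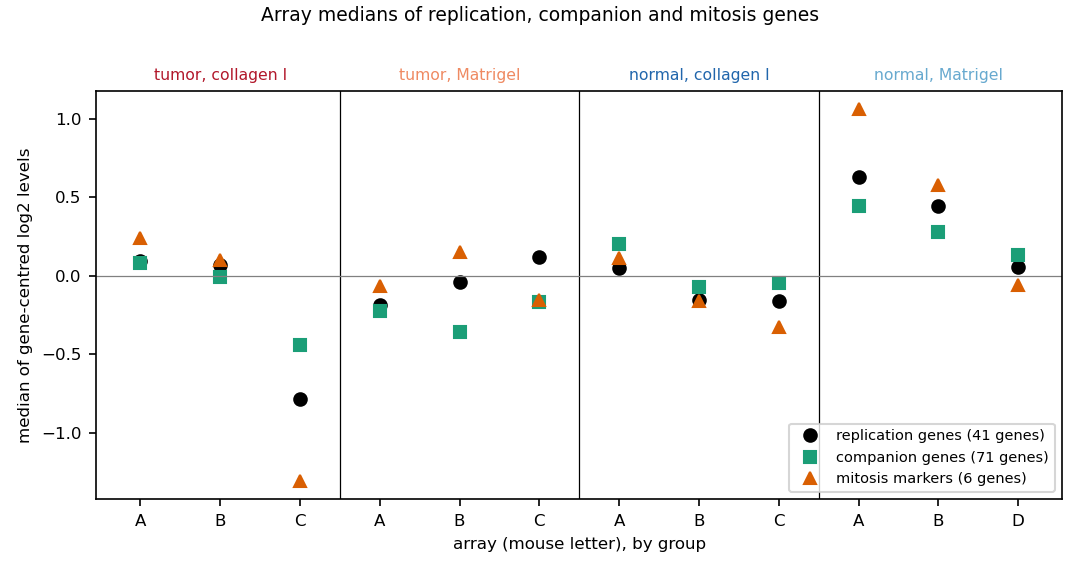
Median over the genes of each list of the log2 level minus the gene's mean over the 12 arrays (vertical), per array (horizontal, by group and mouse letter). Tumor collagen I C is the lowest array for all 3 lists (-0.79 for the replication genes, -0.44 for the companion genes, -1.30 for the mitosis markers), and normal Matrigel A the highest (0.63, 0.45 and 1.06).

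In normal organoids all 41 replication genes had lower mean levels in collagen I than in Matrigel, without 1 that passed. The changes ran from -0.80 (Pola1) to -0.05 (Ccne1), with a median of -0.47 against -0.01 over all genes. With slide as a fixed block 35 changes were negative and 6 positive, with a median of -0.24. On 16 genes every collagen I array lay below every Matrigel array (10.04% of all genes did), and 7 had an unadjusted p below 0.05: Cdc7, Pole2, Rfc3, Rfc4, Pola1, Prim2 and Mcm2. The smallest limma adjusted p was 0.358, for Cdc7 (-0.79 ± 0.25). Mouse A gave a median of -0.55 and mouse B of -0.58 between its gels, each with 40 of 41 genes lower in collagen I. Within slides the values differed: collagen I C against Matrigel B gave a median of -0.62 on 1 slide, and collagen I A against Matrigel D gave 0.03 on the other. Normal Matrigel D was the lowest of its group for 38 genes and A the highest for 34. The mitosis markers stood likewise, at a centred median of -0.06 in D and 1.06 in A. Normal Matrigel A and B had also been hybridised in batch 1, and the median over the 41 genes of batch 1 minus batch 2 was -0.50 for A and -0.12 for B. Mouse A minus mouse B was 0.23 in batch 2 and -0.23 in batch 1. With the batches averaged the normal gel median was -0.36, and the median of tumor against normal in Matrigel was -0.36 in place of -0.60.

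Between tumor and normal organoids in collagen I the 41 changes had a median of -0.17 (0.05 over all genes), from -1.37 for Ccne2 (limma adjusted p = 0.101) to 0.60 for E2f1. On 39 of 41 genes the arrays overlapped. Dut lay below in every tumor array (-0.52), as did 14.86% of all genes, and E2f1 above, as did 18.41% of all genes. Without tumor collagen I C the median was 0.15, and without tumor collagen I A Ccne2 passed (-1.96, limma adjusted p = 0.00665). The 1 slide that held both, with tumor C and normal B, gave a median of -0.73.

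The changes moved with the GC content of the probe. Over all 17635 genes, the median change of tumor against normal in Matrigel was -0.64 for probes of at most 35% GC, -0.28 for over 35 to 40%, 0.13 for over 40 to 45% and 0.63 for over 45%. In the same bins the tumor gel change was 0.34, 0.18, -0.05 and -0.39, and that of tumor against normal in collagen I, which holds no tumor Matrigel array, was -0.15, -0.03, 0.07 and 0.22. The replication genes had medians of -0.58 (8 genes), -0.17 (9), -0.66 (18) and 0.43 (6) between the tissues in Matrigel, and of -0.23, -0.27, 0.00 and -0.42 between the gels in tumor organoids. The trend on GC was then removed from each array, a setting chosen after the data were seen. Between the tissues in Matrigel, 13 genes were then lower and 2 higher, with a median of -0.53. The share of all genes called in that setting is not given here. Orc1 (-0.20), Dut (-0.59), Pold1 (0.37) and Tk1 (0.72) were no longer called and Gins2 (-0.90) and Pole2 (0.63) were, while Pola1 kept -2.15 and Cdc7 -1.50. In tumor organoids between the gels, all 7 calls remained and Rfc4 (-0.85) was added.

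**Figure D5:**
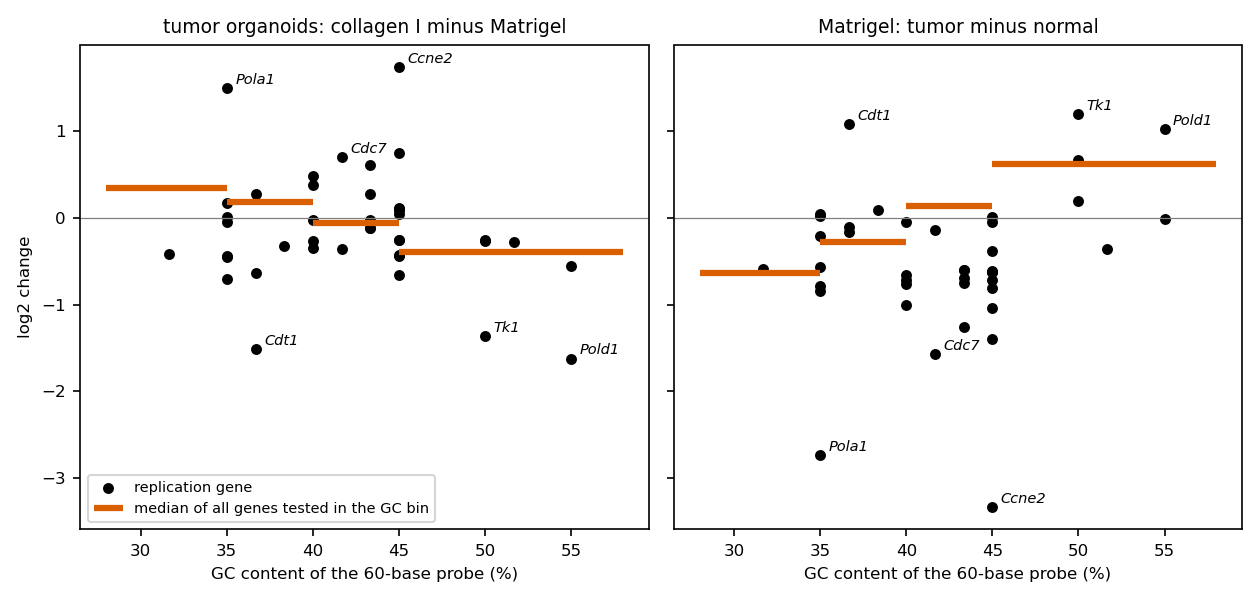
Log2 change (vertical) against the GC content of the gene's probe (horizontal, percent) for the 41 genes, in tumor organoids (collagen I minus Matrigel) and in Matrigel (tumor minus normal); bars are the median over all tested genes in 4 GC bins. Over all genes the median runs from 0.34 to -0.39 in the first and from -0.64 to 0.63 in the other, and Cdt1 and Cdc7 lie away from the bars.

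Of a further 71 genes of replication, its checkpoint and histone and nucleotide supply, 8 were called higher (26.2% of all genes) and 31 lower (25.4%) in tumor than in normal organoids in Matrigel. The median change was -0.53, against 0.10 over all genes. The lower ones with the smallest adjusted p were Dna2 (-2.75), a nuclease of Okazaki fragments, Rrm2b (-1.96), a subunit of ribonucleotide reductase induced by p53, and Topbp1 (-1.28), a scaffold of origin firing and of the checkpoint kinase ATR. The higher ones were Pold4 (1.85), a small subunit of polymerase delta, Mcm9 (0.93), an MCM relative, and Rnaseh2a (1.16), the catalytic subunit of RNase H2. Between the gels in tumor organoids 8 were higher in collagen I (15.2% of all genes), led by E2f2 (1.11), Supt16 (0.85) and Dna2 (1.70), and 7 lower (12.3%), led by Mcm9 (-0.83), Shmt1 (-1.13) and Pold4 (-1.27). No companion passed in the other comparisons.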

How the data were processed

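RNA of 12 organoid cultures was amplified from low input, labelled with Cy3 and hybridised to 14 1-colour Agilent arrays, per the labels' protocols. The deposited scanner files hold the processed signal intensity of each spot after background subtraction by Agilent Feature Extraction 9.5, per the file headers (9.1 per the submitters' processing notes). The authors also deposited a table of log2 values, used as an alternative. Probe positions are mm7, per the file headers.

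The intensity was divided by each array's 75th percentile and its log2 taken. A probe was kept where all 3 arrays of some group had it well above background and each group had at least 2 values. The brightest probe stood for a gene, leaving 17635 genes of 26597 probes. The 12 batch 2 arrays were fitted in limma 3.58.1 (R 4.3.3) with 1 mean per group, 8 residual and 2.732 prior degrees of freedom, and Benjamini-Hochberg adjustment per comparison. The labels say that each condition was replicated in independent experiments, so p-values measure the spread between mice; 3 arrays a group limit the precision. The labels name a batch for normal Matrigel A and B alone. For B they list a pair of scanner files as technical replicates from both batches without saying which is which, so the file that shares its scan day with the other 11 fitted arrays was taken as batch 2, as all 12 are called here. The batch 1 repeats of A and B entered 1 alternative only. The fit was tested on simulated data.

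The members and lists were chosen with earlier results of these data known. Values on every array are given for at most 12 called members with the smallest adjusted p and for the member of highest mean signal in each role; companions are named up to 3 per direction. The same mouse letter in both gels of a tissue is 1 animal, and the correlation of the deviations of such arrays from their group means over all genes was 0.23 and -0.25 for normal A and B and -0.06, 0.33 and 0.42 for tumor A, B and C. The alternatives comprised normexp (offset 50), quantile normalization, the authors' values, other probe filters, the mean of a gene's probes, mouse and slide as blocks, values within slides, limma's trend, kept outlier spots, only the groups compared, batches averaged, each array left out and, chosen after seeing the data, removal of the probe GC trend. Promoters were from RefSeq GRCm38.p6.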

Additional observations from a re-analysis of the deposited data

Results flagged for a closer look

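Pola1, the catalytic subunit of polymerase alpha, was the 1 replication gene called in the main fit by a test of the difference of gel effects. That test asks whether the change between collagen I and Matrigel differed between tumor and normal organoids. For Pola1 the gel change was 1.50 in tumor organoids and -0.80 in normal organoids. Their difference was 2.30 ± 0.48 on the log2 scale (limma adjusted p = 0.0394, 3 arrays per group). Every tumor collagen I array lay above every tumor Matrigel array, and every normal collagen I array lay below every normal Matrigel array. The difference was not past the threshold in 13 of 26 alternatives, with limma adjusted p of 0.0184 to 0.135 over all of them. In some alternatives other replication genes passed this test. Cdc7 did with the mean of its probes (1.40, limma adjusted p = 0.0395) and with the mouse as a random replicate block (1.51, limma adjusted p = 0.0294). With that block Gins3 (1.21, limma adjusted p = 0.0377) and Pold1 (-1.27, limma adjusted p = 0.0372) passed too. Cdt1 passed with the batches averaged (-1.30, limma adjusted p = 0.0445).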

How the results depend on the processing

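The tumor Matrigel arrays were the dimmest (75th percentile 383 to 570), which limits what can be said of probes near background there, as for Ccne2. Under normexp the median of all genes moved to 0.43 between the tissues in Matrigel, 0.16 between the tissues in collagen I, -0.32 between the gels in tumor organoids and -0.28 for the difference of gel effects, and changes in that setting are to be read relative to these. There the replication genes had medians of -0.58, -0.17, -0.11 and 0.39, and the signs of Ccne2 turned (-0.68 between the gels in tumor organoids, 0.30 between the tissues in Matrigel), as did that of Orc1 (0.22 between the tissues in Matrigel); the cause was not tested.

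The 7 genes called between the gels in tumor organoids were 4 under quantile normalization (1 higher, 3 lower), 1 under normexp (0 higher, 1 lower), 4 with the authors' values (1 higher, 3 lower), 2 with only the groups compared, where fewer arrays set the spread, and 4 with slide as a fixed block; each array left out gave 4 to 8, with medians of -0.36 to 0.16, and the slide that held both gels gave 0.0793. In normal organoids 0 were called in every setting that gave a test, and the median was 0.0316 within slide 1. Between the tissues in Matrigel, 17 calls were 11 with slide as a fixed block, 10 to 21 with each array left out, and split 1 higher and 17 lower under quantile normalization, 1 and 13 under normexp, and 1 and 15 with the authors' values; the median was -0.19 within slide 1. In collagen I the tissues gave 0 to 1 calls with each array left out, medians of -0.34 to 0.15, -0.47 with slide as a fixed block and -0.73 within slide 3. For the difference of gel effects, 1 call was 0 under quantile normalization, normexp, the authors' values, no filter and the removed GC trend, 2 with probes well above background on all arrays or the mean of probes, 3 with limma's trend, 4 with slide as a random block, 5 with the batches averaged and 0 to 3 with each array left out, with medians of 0.11 to 0.60.

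With the mouse as a fixed replicate block, 4 genes were called between the gels in tumor organoids, 0 in normal organoids (median -0.55) and 0 for the difference; as a random replicate block, 8, 0 and 4, and 14 between the tissues in Matrigel. Mice are nested in tissue, so no fixed block was possible there.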
